A study of Mus musculus with 21 samples.

Results

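The 35 genes described here make cholesterol and fatty acids or control that synthesis, and all are known as targets or regulators of the sterol regulatory element binding proteins (SREBPs). They were taken by name as probe sets that carry a single gene symbol, and each gene was represented by its brightest probe set over the 21 arrays. This gave 32 measured genes of the 12393 genes measured in all. Acat2, Insig1 and Acsl3 had no probe set under a single symbol and were not analysed here. The sterol branch held 17 measured genes, 6 from acetyl-CoA to farnesyl diphosphate (the mevalonate arm) and 11 from squalene to cholesterol. The fatty acid branch held 10, and 5 were regulators or a sterol carrier counted in neither branch.

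The cells were RAW 264.7, a macrophage-like mouse line grown from a virus-induced tumour, so the results describe 1 transformed line in culture. They were exposed for 2 h, in medium without serum, to amorphous silica, either 10 nm particles at 5, 20 and 50 µg/ml or 500 nm particles at 250, 500 and 1000 µg/ml, called low, mid and high within each size. All were set against untreated cells, and there were 3 arrays for each of the 7 groups. No label calls the replicates separate cultures, so the spread behind each p-value is that between arrays and may be technical. The labels also leave it unsaid whether untreated cells went into serum-free medium, and they describe different culture plates for growth and for treatment, so in comparisons with untreated cells a change of medium and the particles cannot be told apart. All treated groups share the stated treatment medium, which comparisons between doses and sizes therefore hold constant. Dose divided by diameter gives a nominal surface area, which is the same for both low doses and again for the 500 nm high and the 10 nm mid dose.

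SREBPs are transcription factors made as membrane proteins of the endoplasmic reticulum. When sterol in that membrane is low, the escort protein SCAP carries them to the Golgi apparatus, where proteases release the active part, and INSIG proteins hold SCAP back when sterol is plentiful. SREBP2 acts mainly on cholesterol genes and SREBP1c mainly on fatty acid genes, and in macrophages the liver X receptors (LXR), which sense oxysterols, also raise Srebf1 and several desaturase genes. Macrophages that engulf particles or dead cells handle much membrane lipid, and their sterol synthesis is known to be tightly regulated.

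Values are log2 of the probe set signal, and a change is the difference of group means on that scale. The log base of the deposited values was read from their range, so every fold change rests on base 10. A gene was called where limma's adjusted p was under 0.05, with Benjamini-Hochberg adjustment over all 12393 genes. For a gene's further probe sets the adjustment ran over all probe sets. Of 10 macrophage markers, 8 lay above the median gene, among them Csf1r, Lyz2 and Cd68, while Itgam and Mrc1 lay below it, and so did all measured markers of neutrophils, of epithelial cells, of fibroblasts and of B and T cells. The replicate 3 array had the narrowest spread of values in 7 of 7 groups, and the difference between 3 prime and 5 prime control probe sets was largest on replicate 3 in 5 of them. It stood out most in untreated cells, at 1.15 (log2) on replicate 3 against 0.17 and 0.17. At the 10 nm high dose it was 0.95 against 0.25 and 0.26. That untreated array enters every comparison with untreated cells. Correlations between arrays over genes ran from 0.969 to 0.998. Centring each array on its median moved all changes up by 0.11 at the 10 nm high dose, and it changed the split of higher and lower calls over all genes to 1853 and 1100, against 939 and 1567 as deposited. The split at the 500 nm high dose became 1205 and 895, against 658 and 1240, and at the 10 nm mid dose 589 and 640, against 399 and 916.

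Promoter windows of 250 bases before to 50 after the annotated transcript start were read from RefSeq (GRCm38.p6) for 25 of the 32 measured genes. Fdps, Fdft1, Sqle, Stard4, Scd1, Scd2 and Fads1 had no window. SREBPs are weak activators alone and are known to work with NF-Y, which binds the letters CCAAT. Both strands were searched for CCAAT, for the classical sterol regulatory element TCACNCCAC and for GGGCGG, a core that Sp1 binds, and a gene with several windows counted when any of them held the motif. The 5 windows below are those of the sterol genes with the largest rises at the 500 nm high dose that have a window (Hmgcs1, Hsd17b7 and Sc5d), of Mvk, a sterol gene that did not pass the test there, and of Lpin1, the one fatty acid branch gene that rose there. Capitals mark matches to CCAAT or TCACNCCAC on either strand, so ATTGG is CCAAT read from the other strand. Each is written 5′ to 3′ along the gene's own strand.
Hmgcs1, chr13:119690101-119690400, plus strand: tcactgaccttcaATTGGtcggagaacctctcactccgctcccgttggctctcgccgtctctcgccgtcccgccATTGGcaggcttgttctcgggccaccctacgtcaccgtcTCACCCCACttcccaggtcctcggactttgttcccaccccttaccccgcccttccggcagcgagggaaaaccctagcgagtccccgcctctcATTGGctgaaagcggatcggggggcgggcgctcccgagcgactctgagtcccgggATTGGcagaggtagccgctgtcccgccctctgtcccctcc
Hsd17b7, chr1:169969156-169969455, minus strand: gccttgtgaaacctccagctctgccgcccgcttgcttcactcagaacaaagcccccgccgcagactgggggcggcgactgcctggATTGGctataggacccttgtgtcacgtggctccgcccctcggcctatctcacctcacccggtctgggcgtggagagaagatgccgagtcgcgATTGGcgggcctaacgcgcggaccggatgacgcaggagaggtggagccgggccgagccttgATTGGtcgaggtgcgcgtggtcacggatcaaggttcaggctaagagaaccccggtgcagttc
Sc5d, chr9:42264251-42264550, minus strand: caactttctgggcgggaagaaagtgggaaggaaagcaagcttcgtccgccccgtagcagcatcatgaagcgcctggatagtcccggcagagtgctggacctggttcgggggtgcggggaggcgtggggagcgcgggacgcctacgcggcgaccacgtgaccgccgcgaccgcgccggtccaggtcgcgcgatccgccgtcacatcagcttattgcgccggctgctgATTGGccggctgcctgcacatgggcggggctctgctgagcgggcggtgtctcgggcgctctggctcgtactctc
Mvk, chr5:114444019-114444318, plus strand: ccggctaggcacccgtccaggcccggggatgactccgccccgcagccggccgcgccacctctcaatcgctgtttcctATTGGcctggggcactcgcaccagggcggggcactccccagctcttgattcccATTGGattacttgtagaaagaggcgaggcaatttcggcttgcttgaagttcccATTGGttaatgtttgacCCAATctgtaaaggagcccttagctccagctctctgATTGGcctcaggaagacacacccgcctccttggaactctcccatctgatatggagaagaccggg
Lpin1, chr12:16610917-16611216, minus strand: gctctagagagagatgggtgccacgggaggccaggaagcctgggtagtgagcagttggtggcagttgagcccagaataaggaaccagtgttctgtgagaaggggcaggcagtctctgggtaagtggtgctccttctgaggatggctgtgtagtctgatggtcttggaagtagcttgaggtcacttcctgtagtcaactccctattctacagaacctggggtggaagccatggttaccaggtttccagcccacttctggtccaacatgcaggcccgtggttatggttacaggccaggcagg
The Hmgcs1 window held 4 matches to CCAAT and the single match to TCACNCCAC found in a sterol gene. The Mvk window held 5 matches to CCAAT, more than that of Hmgcs1, of Hsd17b7 with 3 or of Sc5d with 1, and the Lpin1 window held 0. At least 1 CCAAT was present in 14 of 14 sterol genes with a window, in 3 of 7 fatty acid genes and in 3 of 4 regulators, against 41.1% of all 27025 genes with a window. Among the 9887 of those genes on the array the share was 42.3%, and among the 5154 brighter than the median gene it was 43.1%. GGGCGG was present in 13 of 14 sterol genes, 2 of 7 fatty acid genes and 4 of 4 regulators, against 38.2% of all genes and 71.8% of the brighter genes on the array. TCACNCCAC was present in 1 of 14, 0 of 7 and 0 of 4, against 1.44% of all genes. No motif count was tied to a change, and Mvk, Ebp, Tm7sf2 and Dhcr7 held CCAAT without passing the test at the 500 nm high dose.

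Most genes of the sterol branch had higher messenger RNA at the 500 nm high dose, while 3 of the 10 genes of the fatty acid branch were called, in both directions. At the 500 nm high dose 12 of the 17 sterol genes rose and 0 fell, 1 of the 10 fatty acid genes rose and 2 fell, and 1 of the 5 regulators fell. Together that was 13 of 32 genes higher and 3 lower, while 5.31% of all genes were called higher and 10.0% lower. Fewer members were called at the 500 nm mid dose, where 8 sterol genes rose and no other member was called, against 1.26% of all genes called higher and 1.51% lower. With the 500 nm low dose 0 members were called, while 0.428% of all genes were called in either direction. An unadjusted limma p under 0.05 was seen for 6 members. The share of all genes under that looser threshold was not counted, so no response is read from these 6. The rises at the mid dose numbered 5 when the untreated replicate 1 array was left out, where 122 of all genes were called higher and 176 lower. With each high dose fit restricted to the 6 arrays compared, Sqle, Lss, Insig2, Elovl6 and Lpin1 missed the threshold at the 500 nm high dose, with adjusted p between 0.0604 and 0.0942 in limma.

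The 10 nm particles gave a smaller and mixed picture in the same genes. At the 10 nm mid dose Msmo1, Hsd17b7 and Fasn rose and Scd1, Scd2 and Insig2 fell, which is 3 higher and 3 lower of 32, while 3.22% of all genes were called higher and 7.39% lower. Centring the arrays on their medians turned that split into 5 higher and 1 lower. At the 10 nm high dose Hsd17b7 and Fasn rose and Scd2, Insig2, Fads1 and Elovl6 fell, which is 2 higher and 4 lower of 32. Over all genes 7.58% were called higher and 12.6% lower, so the members' counts lie near the share over all genes. At the 10 nm low dose 0 members were called, with 0.767% of all genes called. An unadjusted limma p under 0.05 was seen for 3 members, again without a share over all genes at that threshold. Arrays of one replicate number deviated together in the mid and high dose comparisons. At the high dose, though, only 3 of 6 arrays correlated best with their own number. With the replicate number as a block 11 members were called at each of these doses. They were 5 higher and 6 lower at the mid dose, where 18% of all genes were called. At the high dose they were 2 higher and 9 lower, where 36.7% of all genes were called. Without the 10 nm high replicate 3 array 3 members were called at the high dose, where 505 of all genes were higher and 1258 lower. A moderated F test over the 7 groups called 20 of the 32 genes, 13 sterol, 6 fatty acid and 1 regulator, against 16.2% of all genes.

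**Figure D1:**
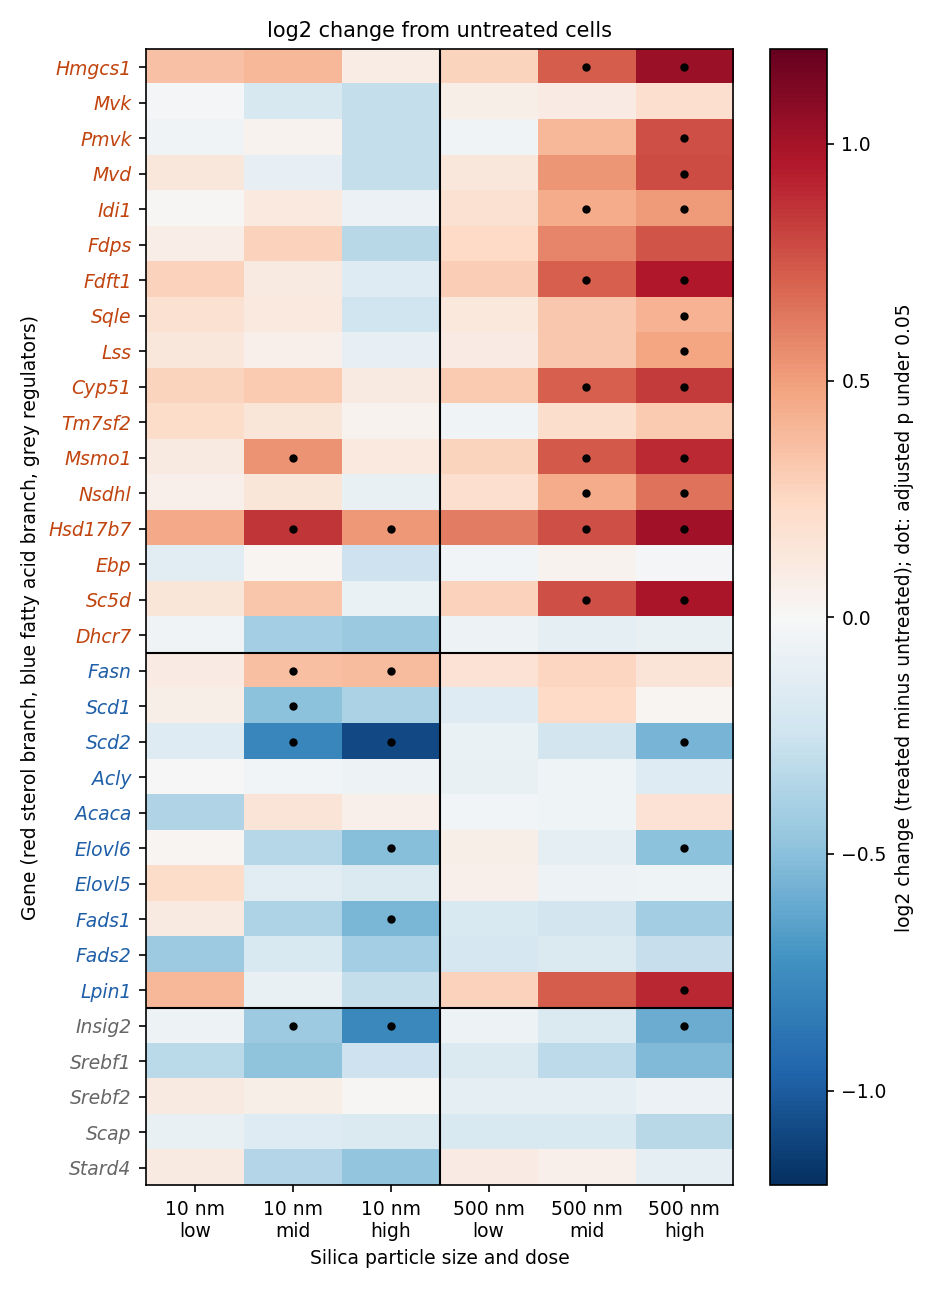
Log2 change from untreated cells (colour) of the 32 measured genes (rows, by branch) at the 3 doses of 10 nm and of 500 nm silica (columns), each from 3 treated and 3 untreated arrays. Dots mark limma calls at adjusted p under 0.05, which stand in 12 of the 17 sterol rows in the 500 nm high column, in 8 in the mid column and in few cells of the 10 nm columns.

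The mevalonate arm builds the isoprenoid units of cholesterol from acetyl-CoA. Its first measured enzyme, Hmgcs1, is the cytosolic synthase that makes HMG-CoA. Hmgcs1 read 10.32, 10.45 and 11.16 in untreated cells, 11.05, 10.93 and 11 at the 10 nm low dose, 10.93, 11.01 and 11.20 at the mid dose and 10.59, 10.51 and 11.08 at the high dose. With 500 nm silica it read 11.09, 10.77 and 10.85 at the low dose, 11.49, 11.27 and 11.35 at the mid dose and 11.68, 11.45 and 11.89 at the high dose. All arrays of the 500 nm mid and high doses lay above all untreated arrays, while the 10 nm arrays overlapped the untreated ones, whose replicate 3 array stood well above the other two. Hmgcs1 at the 500 nm high dose was 2.05-fold higher, a log2 change of 1.03 ± 0.18 (SE) with a limma adjusted p of 0.000564, and at the mid dose the change was 0.73 ± 0.18 (adjusted p = 0.035). With this probe set the 10 nm doses gave 0.35, 0.40 and 0.085 from low to high, of which 0 passed the test. A further probe set nearly as bright rose by 0.41 at the 10 nm mid dose (limma adjusted p = 0.0186). Another rose by 0.44 there (adjusted p = 0.0215), while the dimmest gave 0.58 and was not called (adjusted p = 0.19).

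Pmvk, phosphomevalonate kinase, was more even between arrays. Its values in untreated and 10 nm treated cells were 7.62, 7.56 and 7.57 in untreated cells, 7.50, 7.66 and 7.46 at the 10 nm low dose, 7.71, 7.67 and 7.50 at the mid dose and 7.53, 7.37 and 6.998 at the high dose. In cells given 500 nm particles they were 7.71, 7.45 and 7.49 at the low dose, 7.95, 8.08 and 7.91 at the mid dose and 8.36, 8.49 and 8.22 at the high dose. The 500 nm mid and high arrays lay above all untreated arrays, and the 10 nm high arrays lay below them. Pmvk at the 500 nm high dose was 1.71-fold higher, a log2 change of 0.77 ± 0.12 (SE) with a limma adjusted p of 0.000194, while the mid dose gave 0.39 ± 0.12 (adjusted p = 0.113). Mvd, the decarboxylase that yields isopentenyl diphosphate, was also highest at the 500 nm high dose. It read 7.80, 7.66 and 7.74 in untreated cells, 7.91, 8.001 and 7.70 at the 10 nm low dose, 7.68, 7.83 and 7.39 at the mid dose and 7.77, 7.61 and 6.97 at the high dose. The 500 nm groups read 8.02, 7.86 and 7.73 at the low dose, 8.26, 8.40 and 8.11 at the mid dose and 8.35, 8.66 and 8.53 at the high dose. Again the 500 nm mid and high arrays stood above the untreated ones, and the 10 nm high replicate 3 array was the lowest of all 21. Mvd at the 500 nm high dose was 1.72-fold higher, a log2 change of 0.78 ± 0.17 (SE) with a limma adjusted p of 0.00279.

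The other 3 enzymes of the arm were Mvk, Idi1 and Fdps. Idi1, which converts isopentenyl diphosphate to its isomer, changed by 0.45 ± 0.10 at the 500 nm mid dose and 0.51 ± 0.10 at the high dose, with limma adjusted p of 0.0114 and 0.000931. Its other probe set gave 0.43 and 0.16 at those doses and was called at neither (adjusted p of 0.135 and 0.487). Mvk, mevalonate kinase, gave 0.20 ± 0.10 at the 500 nm high dose (adjusted p = 0.206) and -0.29 ± 0.10 at the 10 nm high dose (adjusted p = 0.0528). Quantile normalization or centring carried the Mvk change at the 500 nm high dose past the threshold (adjusted p of 0.00841 and 0.0474). Fdps, farnesyl diphosphate synthase, gave 0.76 ± 0.43 at the 500 nm high dose and missed the threshold (adjusted p = 0.253). Its replicate 3 arrays were far below the other two in untreated cells, at 9.36 against 11.14 and 11.08, and without the untreated replicate 3 array the change was 0.17. Across the arm 4 of 6 genes rose at the 500 nm high dose and 2 at the mid dose.

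The arm from squalene to cholesterol opens with Fdft1, squalene synthase, the first step that commits isoprenoids to sterols. Fdft1 read 8.77, 8.82 and 9.29 in untreated cells, 9.18, 9.24 and 9.30 at the 10 nm low dose, 8.94, 9.11 and 9.13 at the mid dose and 8.78, 8.62 and 8.997 at the high dose. For 500 nm particles Fdft1 read 9.42, 9.08 and 9.26 at the low dose, 9.71, 9.64 and 9.68 at the mid dose and 9.92, 9.79 and 10.05 at the high dose. Each of the 6 arrays of the 500 nm mid and high doses exceeded each untreated array. Fdft1 at the 500 nm high dose was 1.95-fold higher, a log2 change of 0.96 ± 0.13 (SE) with a limma adjusted p of 3.95e-05, and at the mid dose the change was 0.72 ± 0.13 (adjusted p = 0.00317). Its probe set is of a kind that can also bind related transcripts, and the next brightest Fdft1 probe set, which is not of that kind, changed by 0.99 at the 500 nm high dose (adjusted p = 8.55e-05 in limma).

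Cyp51, the demethylase that acts on lanosterol, followed the 500 nm dose closely. The untreated and 10 nm values of Cyp51 were 9.26, 9.21 and 9.46 in untreated cells, 9.47, 9.67 and 9.58 at the 10 nm low dose, 9.53, 9.61 and 9.75 at the mid dose and 9.31, 9.28 and 9.66 at the high dose. The 500 nm values were 9.63, 9.63 and 9.61 at the low dose, 10.10, 9.96 and 10.03 at the mid dose and 10.21, 10.07 and 10.19 at the high dose. Arrays of all 3 500 nm doses lay above the untreated ones, as did those of the 10 nm low and mid doses. Cyp51 at the 500 nm high dose was 1.79-fold higher, a log2 change of 0.84 ± 0.11 (SE) with a limma adjusted p of 1.78e-05, and at the mid dose the change was 0.71 ± 0.11 (adjusted p = 0.00047). Its 10 nm changes of 0.26 at the low and 0.32 at the mid dose did not pass the test. The next brightest Cyp51 probe set rose by 0.59 at the 500 nm mid dose (adjusted p = 0.00809), but gave 0.29 at the high dose and was not called there (adjusted p = 0.116), and it fell by 0.44 at the 10 nm high dose (adjusted p = 0.0158).

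Msmo1, the monooxygenase that strips methyl groups from the sterol ring, rose with both particle sizes. Msmo1 values ran 10.21, 10.04 and 10.06 in untreated cells, 10.11, 10.39 and 10.12 at the 10 nm low dose, 10.70, 10.67 and 10.54 at the mid dose and 10.28, 10.24 and 10.13 at the high dose. For the larger particles they ran 10.31, 10.49 and 10.31 at the low dose, 10.77, 10.98 and 10.74 at the mid dose and 11.11, 11.09 and 10.79 at the high dose. The 10 nm mid arrays and the arrays of every 500 nm dose lay above the untreated ones. Msmo1 at the 500 nm high dose was 1.86-fold higher, a log2 change of 0.90 ± 0.11 (SE) with a limma adjusted p of 1.16e-05, at the 500 nm mid dose the change was 0.73 ± 0.11 (adjusted p = 0.000529), and at the 10 nm mid dose the change was 0.54 ± 0.11 (adjusted p = 0.00295). At the 10 nm high dose its change was 0.12, which did not pass the test.

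Nsdhl, a dehydrogenase of the same demethylation steps, had the smallest standard error of the branch. It measured 9.21, 9.15 and 9.14 in untreated cells, 9.23, 9.24 and 9.23 at the 10 nm low dose, 9.30, 9.32 and 9.31 at the mid dose and 9.04, 9.07 and 9.11 at the high dose. With 500 nm silica it measured 9.28, 9.48 and 9.36 at the low dose, 9.61, 9.57 and 9.67 at the mid dose and 9.81, 9.84 and 9.80 at the high dose. Arrays of every 500 nm dose and of the 10 nm low and mid doses lay above the untreated ones, and those of the 10 nm high dose lay below. Nsdhl at the 500 nm high dose was 1.57-fold higher, a log2 change of 0.65 ± 0.078 (SE) with a limma adjusted p of 7.48e-06, and at the mid dose the change was 0.45 ± 0.078 (adjusted p = 0.00185).

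Hsd17b7 reduces the keto group left on the sterol ring. It stood at 6.67, 7.31 and 7.46 in untreated cells, 7.59, 7.37 and 7.85 at the 10 nm low dose, 7.88, 7.90 and 8.21 at the mid dose and 7.58, 7.50 and 7.91 at the high dose. In cells with 500 nm particles it stood at 7.68, 7.69 and 7.91 at the low dose, 7.74, 7.96 and 8.06 at the mid dose and 8.26, 8.10 and 8.10 at the high dose. All arrays of the mid and high doses of both sizes, and of the 500 nm low dose, lay above the untreated ones, 1 of which read 6.67 and was the lowest of the 21. Hsd17b7 at the 500 nm high dose was 2.01-fold higher, a log2 change of 1.01 ± 0.18 (SE) with a limma adjusted p of 0.000458, and at the 10 nm mid dose the change was 0.85 ± 0.18 (adjusted p = 0.0026). The change at the 10 nm high dose was 0.52 ± 0.18 (adjusted p = 0.0428), and it missed the threshold without the untreated replicate 1 array, at 0.28 with adjusted p = 0.241, or without the 10 nm high replicate 3 array, at 0.40 with adjusted p = 0.189.

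Sc5d, the oxidase that puts in the ring double bond of 7-dehydrocholesterol, rose nearly as much as Hmgcs1. Its untreated and 10 nm values were 9.52, 9.36 and 9.14 in untreated cells, 9.46, 9.56 and 9.44 at the 10 nm low dose, 9.71, 9.81 and 9.49 at the mid dose and 9.39, 9.35 and 9.02 at the high dose. Its 500 nm values were 9.62, 9.77 and 9.45 at the low dose, 10.02, 10.27 and 10.04 at the mid dose and 10.27, 10.39 and 10.28 at the high dose. The 6 arrays of the 500 nm mid and high doses lay above every untreated and every 10 nm array. Sc5d at the 500 nm high dose was 1.97-fold higher, a log2 change of 0.98 ± 0.13 (SE) with a limma adjusted p of 2.01e-05, and at the mid dose the change was 0.77 ± 0.13 (adjusted p = 0.00111). A much dimmer Sc5d probe set gave -0.048 at the 500 nm high dose (adjusted p = 0.894).

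The remaining genes of the arm were Sqle, Lss, Tm7sf2, Ebp and Dhcr7. Sqle, squalene epoxidase, rose by 0.42 ± 0.091 at the 500 nm high dose (adjusted p = 0.00336) and gave -0.24 ± 0.091 at the 10 nm high dose (adjusted p = 0.0684). Lss, lanosterol synthase, rose by 0.47 ± 0.089 at the 500 nm high dose (adjusted p = 0.000927). Its probe sets disagreed there: a much dimmer one fell by 0.58 (adjusted p = 0.0213), and the mean of its probe sets changed by 0.04 (adjusted p = 0.869). Tm7sf2, a sterol reductase, gave 0.32 ± 0.21, Ebp, a sterol isomerase, -0.014 ± 0.24, and Dhcr7, the reductase that makes cholesterol from 7-dehydrocholesterol, -0.093 ± 0.29 at the 500 nm high dose. None of these last 3 passed the test at any dose or in the F test, where their adjusted p were 0.76, 0.94 and 0.77. Of the 11 genes of the arm, 8 rose at the 500 nm high dose and 6 at the mid dose.

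**Figure D2:**
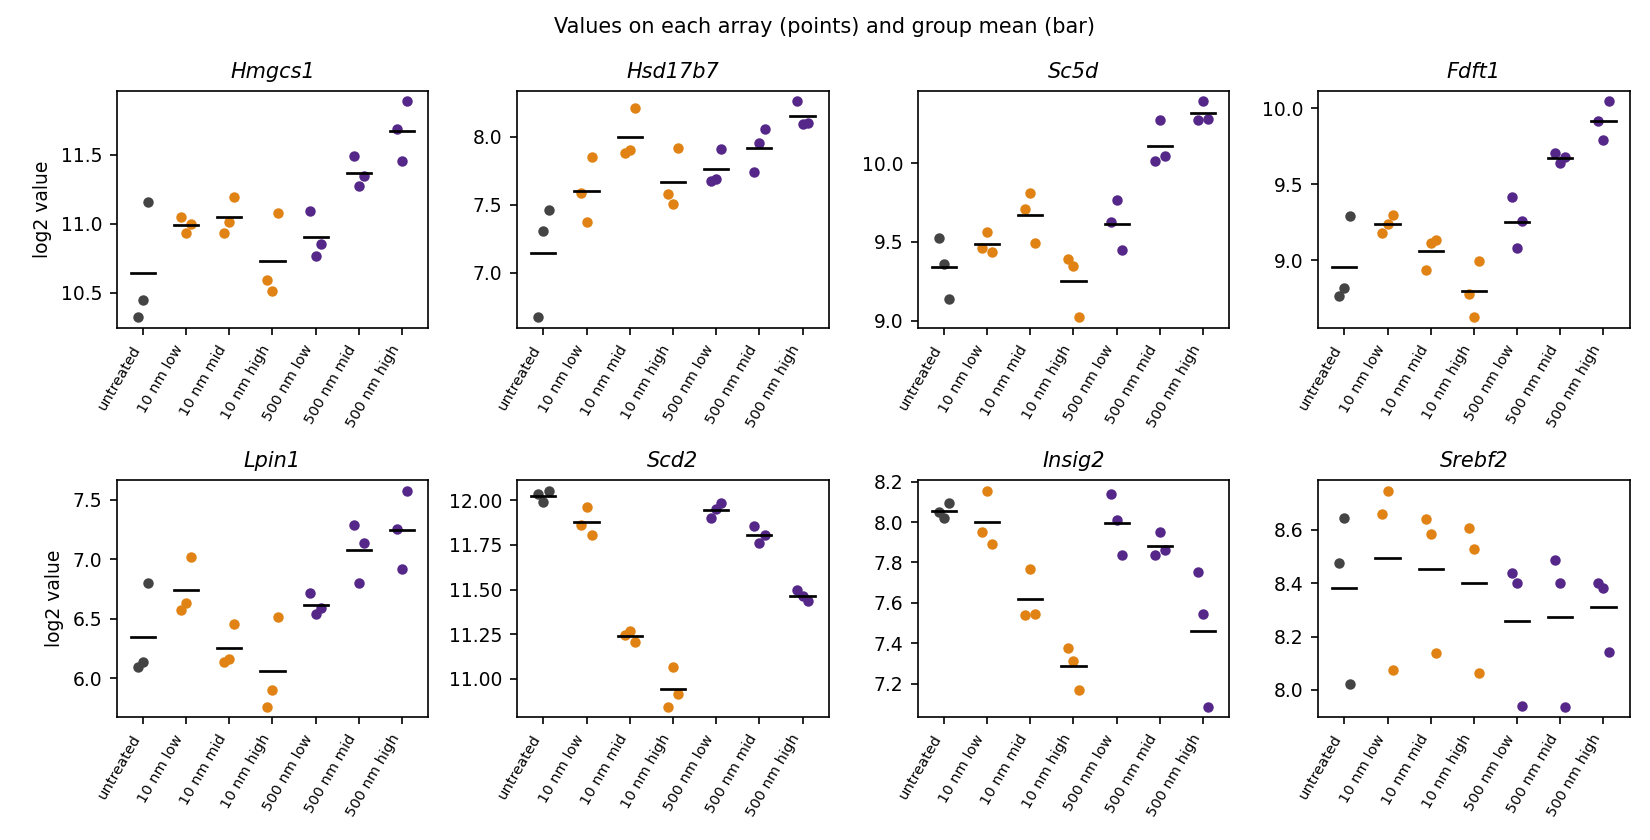
Log2 value on each array (points) and group mean (bar) of 4 sterol genes (Hmgcs1, Hsd17b7, Sc5d, Fdft1), 2 fatty acid branch genes (Lpin1, Scd2) and 2 regulators (Insig2, Srebf2), with untreated cells in grey, 10 nm silica in orange and 500 nm silica in purple. The 4 sterol genes and Lpin1 are highest at the 500 nm high dose, Scd2 and Insig2 are lowest at the 10 nm high dose or in an array of the 500 nm high dose, and the arrays of Srebf2 overlap between all groups.

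The fatty acid branch differed between its members. Scd2, a stearoyl-CoA desaturase that places a double bond in saturated fatty acids, fell with both particle sizes. Scd2 measured 12.03, 11.99 and 12.05 in untreated cells, 11.86, 11.96 and 11.81 at the 10 nm low dose, 11.24, 11.27 and 11.21 at the mid dose and 10.84, 11.06 and 10.92 at the high dose. For 500 nm particles Scd2 measured 11.90, 11.95 and 11.98 at the low dose, 11.86, 11.76 and 11.81 at the mid dose and 11.50, 11.46 and 11.44 at the high dose. The 10 nm mid and high arrays and the 500 nm high arrays lay well below the untreated ones, and the 10 nm high arrays were the lowest. Scd2 at the 10 nm high dose was 2.12-fold lower, a log2 change of -1.08 ± 0.082 (SE) with a limma adjusted p of 1.63e-08, at the 10 nm mid dose the change was -0.79 ± 0.082 (adjusted p = 1.33e-06), and at the 500 nm high dose the change was -0.56 ± 0.082 (adjusted p = 7.92e-05). Another Scd2 probe set changed by -1.32 at the 10 nm high dose (adjusted p = 0.0388), while the last changed by -0.013 (adjusted p = 0.975). With the mean of its probe sets the change at the 500 nm high dose was -0.34 and not called (adjusted p = 0.167).

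Scd1, the other measured desaturase of that family, was called lower at 1 dose, the 10 nm mid dose. It read 6.41, 6.24 and 6.39 in untreated cells, 6.26, 6.67 and 6.33 at the 10 nm low dose, 5.998, 5.75 and 5.81 at the mid dose and 6.09, 5.94 and 5.87 at the high dose. For 500 nm silica it read 6.10, 6.36 and 6.11 at the low dose, 6.47, 6.82 and 6.45 at the mid dose and 6.42, 6.53 and 6.17 at the high dose. The 10 nm mid and high arrays lay below the untreated ones, and the 500 nm high arrays overlapped them. Scd1 at the 10 nm mid dose was 1.41-fold lower, a log2 change of -0.49 ± 0.13 (SE) with a limma adjusted p of 0.0207, and the change at the 10 nm high dose was -0.38 ± 0.13 (adjusted p = 0.0524). A second Scd1 probe set fell by 0.65 at the 10 nm high dose (adjusted p = 0.000445).

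Fads1 puts double bonds into polyunsaturated fatty acids. Fads1 had values of 10.22, 10.25 and 10.24 in untreated cells, 10.17, 10.66 and 10.20 at the 10 nm low dose, 9.87, 9.85 and 9.89 at the mid dose and 9.88, 9.89 and 9.31 at the high dose. The 500 nm groups had 10.12, 9.96 and 10.08 at the low dose, 10.04, 10.05 and 9.96 at the mid dose and 9.73, 9.96 and 9.78 at the high dose. All arrays of the 10 nm mid and high doses and of every 500 nm dose lay below the untreated arrays, with 1 array of the 10 nm high dose far below the others. Fads1 at the 10 nm high dose was 1.46-fold lower, a log2 change of -0.55 ± 0.14 (SE) with a limma adjusted p of 0.00949, but without that array, replicate 3, the change was -0.36 and not called (adjusted p = 0.0609). The change of -0.42 ± 0.14 at the 500 nm high dose missed the threshold (adjusted p = 0.0508).

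Lpin1 behaved like the sterol genes. It encodes lipin 1, a phosphatidate phosphatase that makes diacylglycerol for triglyceride and phospholipid, and is placed in this branch by function. Lpin1 stood at 6.10, 6.14 and 6.80 in untreated cells, 6.57, 6.63 and 7.02 at the 10 nm low dose, 6.14, 6.17 and 6.46 at the mid dose and 5.76, 5.90 and 6.51 at the high dose. Its 500 nm values stood at 6.72, 6.54 and 6.59 at the low dose, 7.29, 6.80 and 7.13 at the mid dose and 7.25, 6.92 and 7.58 at the high dose. The 500 nm high arrays lay above the untreated ones, the lowest 500 nm mid array equalled the highest untreated array, replicate 3, to 2 decimals, and the 10 nm arrays overlapped the untreated ones. Lpin1 at the 500 nm high dose was 1.87-fold higher, a log2 change of 0.90 ± 0.22 (SE) with a limma adjusted p of 0.00643, and the mid dose gave 0.73 ± 0.22 (adjusted p = 0.084). Its other probe set rose by 1.19 at the 500 nm high dose (adjusted p = 1.55e-05) and by 0.98 at the mid dose (adjusted p = 0.000553), and fell by 0.54 at the 10 nm high dose (adjusted p = 0.0158).

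Fasn, the fatty acid synthase itself, rose with 10 nm silica, by 0.36 ± 0.088 at the mid and 0.38 ± 0.088 at the high dose (adjusted p of 0.0097 and 0.00482). Its change at the 500 nm high dose was 0.16 ± 0.088 (adjusted p = 0.247). Fitted on the 6 arrays alone, the change at the 10 nm high dose was not called (adjusted p = 0.139). Elovl6, which elongates palmitate, fell by 0.51 at the 10 nm high dose (SE 0.16, adjusted p = 0.0294) and by 0.49 at the 500 nm high dose (SE 0.16, adjusted p = 0.0407). Both Elovl6 calls were lost under centring (adjusted p of 0.053 and 0.0664), and leaving out single arrays ended the 10 nm call in 3 of 6 and the 500 nm call in 5 of 6 cases: untreated replicates 1 and 2 in both, 10 nm high replicate 3 in the first and each 500 nm high array in the second. The adjusted p then ran from 0.0848 to 0.167 at the 10 nm and from 0.0511 to 0.187 at the 500 nm high dose. Its second probe set, nearly as bright, fell by 0.77 and 0.89 at those doses (adjusted p of 0.0322 and 0.0162).

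Acly, which makes cytosolic acetyl-CoA, Acaca, the carboxylase that commits it to fatty acids, Elovl5, an elongase, and Fads2, a desaturase, passed no test with their brightest probe sets. Their changes at the 500 nm high dose were -0.15, 0.17, -0.051 and -0.28 with standard errors of 0.11, 0.35, 0.20 and 0.29. A second Elovl5 probe set fell by 0.42 at the 10 nm high dose (limma adjusted p = 0.0406).

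Among the regulators Insig2, which retains SCAP and SREBP in the endoplasmic reticulum when sterol is plentiful, was lower with both sizes. Insig2 read 8.05, 8.02 and 8.09 in untreated cells, 7.95, 8.16 and 7.89 at the 10 nm low dose, 7.54, 7.77 and 7.54 at the mid dose and 7.38, 7.31 and 7.17 at the high dose. With the larger particles Insig2 read 8.14, 8.01 and 7.84 at the low dose, 7.84, 7.95 and 7.86 at the mid dose and 7.75, 7.54 and 7.09 at the high dose. The arrays of the 10 nm mid and high doses and of the 500 nm mid and high doses all lay below the untreated ones. Insig2 at the 10 nm high dose was 1.7-fold lower, a log2 change of -0.77 ± 0.14 (SE) with a limma adjusted p of 0.000468, at the 500 nm high dose the change was -0.59 ± 0.14 (adjusted p = 0.00487), and at the 10 nm mid dose the change was -0.44 ± 0.14 (adjusted p = 0.0459). A dimmer Insig2 probe set fell by 0.82 at the 10 nm and by 0.77 at the 500 nm high dose (adjusted p of 0.000694 and 0.00116), and the last changed by -0.42 and -0.10 (adjusted p of 0.0356 and 0.673).

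The genes of both transcription factors and of the escort were not called in any comparison. Srebf2, which encodes SREBP2, read 8.48, 8.64 and 8.02 in untreated cells, 8.66, 8.75 and 8.07 at the 10 nm low dose, 8.64, 8.58 and 8.14 at the mid dose and 8.61, 8.53 and 8.07 at the high dose. In 500 nm groups Srebf2 read 8.44, 8.40 and 7.94 at the low dose, 8.49, 8.40 and 7.94 at the mid dose and 8.40, 8.38 and 8.14 at the high dose. Replicate 3 was the lowest array of Srebf2 in all 7 groups, and the groups overlapped. Srebf1, which encodes both SREBP1 forms, read 9.70, 10.06 and 10.63 in untreated cells, 9.79, 9.57 and 10.06 at the 10 nm low dose, 9.35, 9.63 and 9.97 at the mid dose and 9.70, 9.58 and 10.38 at the high dose. The 500 nm values of Srebf1 were 10.01, 9.78 and 10.10 at the low dose, 9.97, 9.58 and 9.90 at the mid dose and 9.56, 9.34 and 9.91 at the high dose. Here replicate 3 was the highest array in 6 of 7 groups, and the groups again overlapped. At the 500 nm high dose the changes were -0.073 ± 0.22 for Srebf2 and -0.53 ± 0.24 for Srebf1 (adjusted p of 0.84 and 0.142). Scap values were 9.36, 9.52 and 9.76 in untreated cells, 9.41, 9.41 and 9.56 at the 10 nm low dose, 9.37, 9.35 and 9.44 at the mid dose and 9.30, 9.21 and 9.60 at the high dose. With 500 nm silica Scap values were 9.39, 9.26 and 9.45 at the low dose, 9.36, 9.50 and 9.22 at the mid dose and 9.14, 9.22 and 9.26 at the high dose. All 500 nm high arrays of Scap lay below the untreated ones, and the change of -0.34 ± 0.12 missed the threshold (adjusted p = 0.0595).

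Stard4, a carrier of cholesterol between membranes, depended on the probe set. The brightest one changed by -0.11 ± 0.19 at the 500 nm high dose (adjusted p = 0.721) and by -0.47 ± 0.19 at the 10 nm high dose (adjusted p = 0.0908). Another of nearly the same brightness rose by 0.91 ± 0.17 at the 500 nm high dose (adjusted p = 0.00109) and changed by -0.15 at the 10 nm high dose (adjusted p = 0.565). No direction is given for Stard4. Over all members, 20 had further probe sets, 31 in number, and 24 of these changed in the same direction as the chosen one at the 500 nm high dose.

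Set side by side, the gap between the branch medians widened with the dose of 500 nm silica. With 10 nm silica it was widest at the mid dose, but this order depended on the processing. With the mean of all probe sets of a gene it was 0.25 at the 10 nm mid and 0.26 at the high dose. Without the replicate 3 arrays of all groups it was 0.15 and 0.18. The median change over the 17 sterol genes was 0.18, 0.45 and 0.76 at the 500 nm low, mid and high doses, and over the 10 fatty acid genes it was -0.06, -0.06 and -0.10, while the median of all genes was 0.0031, 0.023 and 0.073. The sterol median at the 500 nm high dose is the change of Fdps, which was not called, and with the mean of all probe sets of a gene it was 0.46. With 10 nm silica the sterol medians were 0.13, 0.12 and -0.10 and the fatty acid medians 0.05, -0.16 and -0.33, beside all-gene medians of 0.026, 0.031 and 0.036. The sterol median at the 10 nm high dose became 0.0033 when arrays were centred on their medians, so its sign depends on the scaling. The mean over sterol genes of the difference from untreated cells was 0.63, 0.66 and 0.57 on the 3 arrays of the 500 nm high dose, against -0.07, 0.0005 and -0.13 for fatty acid genes on the same arrays. The difference between these branch means was 0.69 ± 0.03 at the 500 nm high dose, 0.42 ± 0.07 at the mid and 0.19 ± 0.02 at the low dose. It was 0.20 ± 0.03, 0.36 ± 0.03 and 0.13 ± 0.03 at the high, mid and low dose of 10 nm silica. Each SD is over the treated arrays (n = 3) and leaves out the spread of the untreated arrays, which read 0.025, 0.030 and -0.055. The branch differences describe genes that share arrays, and no test was made of them. Arrays of the 500 nm high dose lay wholly above the untreated arrays for 13 of 17 sterol genes, a separation seen in 15.2% of all genes, and for 2 of 10 fatty acid genes.

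**Figure D3:**
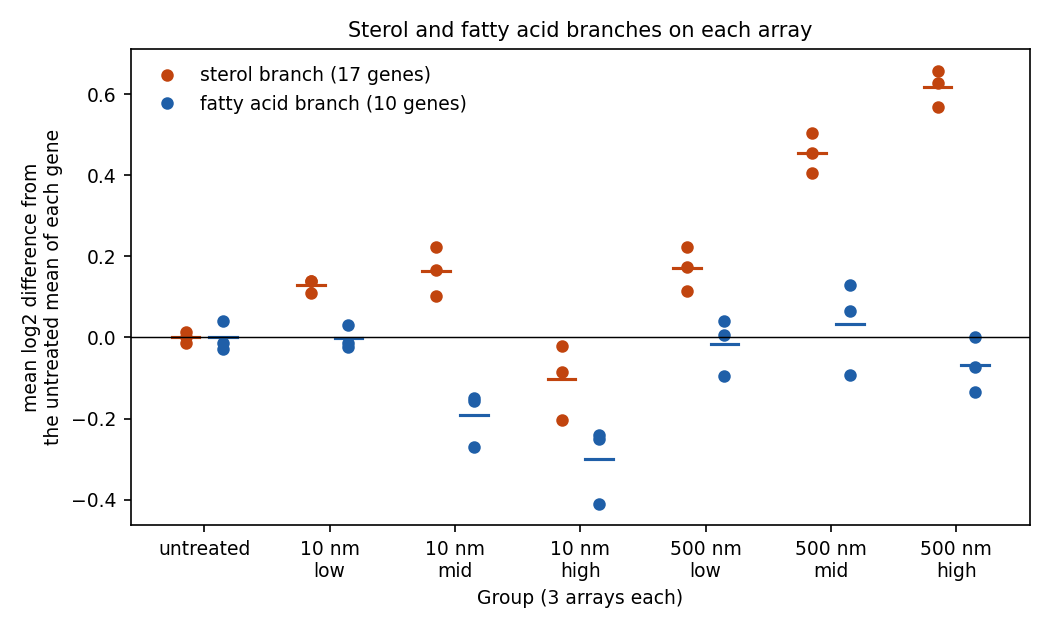
Mean difference from the untreated group mean (log2) over the 17 sterol genes (red) and the 10 fatty acid genes (blue) on each of the 21 arrays, with bars at group means. The sterol points climb to between 0.57 and 0.66 at the 500 nm high dose, while the fatty acid points stay between -0.13 and 0.0005 there and are lowest at the 10 nm high dose.

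The sizes were then compared at equal nominal surface area. At the 500 nm high dose against the 10 nm mid dose 11 of 32 members were higher and 0 lower, 9 of them sterol genes and the other two Lpin1 and Scd1, while 1.04% of all genes were called higher and 1.81% lower. Mvd in this pair was 1.85-fold higher, a log2 change of 0.88 ± 0.17 (SE) with a limma adjusted p of 0.00465. Fdft1 there was 1.81-fold higher, a log2 change of 0.86 ± 0.13 (SE) with a limma adjusted p of 0.000851, with means of 9.92 ± 0.13 with 500 nm and 9.06 ± 0.11 with 10 nm particles (SD, n = 3 each). Lpin1 there was 1.99-fold higher, a log2 change of 0.996 ± 0.22 (SE) with a limma adjusted p of 0.0131. Pmvk, Sc5d, Cyp51, Nsdhl, Lss, Idi1 and Mvk differed by 0.73, 0.64, 0.52, 0.50, 0.41, 0.39 and 0.39, and Scd1 by 0.52. Hsd17b7, called against untreated cells at both doses, differed by 0.15 with a 95% interval from -0.22 to 0.52 (adjusted p = 0.852). Insig2 differed by -0.16, with an interval from -0.44 to 0.13. The count fell to 5 without the 10 nm mid replicate 1 array, where 66 of all genes were higher and 125 lower. Without the 500 nm high replicate 1 array it fell to 6, where 66 were higher and 129 lower. When the 6 arrays were fitted alone 3 members were called, with 0.783% of all genes. With the mean of all probe sets of a gene 8 members were called (2.88% of all genes), 5 of them sterol genes. The next brightest probe sets of Idi1, Cyp51 and Lss gave 0.010, 0.23 and -0.38 in this pair. They were not called (limma adjusted p of 0.997, 0.471 and 0.321). Those of Mvd, Mvk and Sc5d gave 0.85, 0.41 and -0.07 and were not called either (limma adjusted p of 0.0658, 0.405 and 0.97). Those of Fdft1, Lpin1 and Scd1 were called higher, by 0.75, 1.17 and 0.49 (adjusted p of 0.00516, 9.46e-05 and 0.0181). Mass doses differed at this pair, 1000 against 20 µg/ml.

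At the low doses, the other pair of equal nominal area, 0 of 32 members were called between 500 nm and 10 nm particles, as were 0.0888% of all genes, and 0 members had an unadjusted p under 0.05. The interval of the difference for Hmgcs1 ran from -0.47 to 0.30 and for Sc5d from -0.14 to 0.39. Between the high doses, where nominal area also differed, 14 members were higher with 500 nm than with 10 nm silica and 0 lower, against 4.15% of all genes called higher and 3.37% lower. They were 12 of 17 sterol genes, Lpin1 and Scd2. Lpin1 between the high doses was 2.28-fold higher, a log2 change of 1.19 ± 0.22 (SE) with a limma adjusted p of 0.00157, and Fdft1 differed by 1.12 ± 0.13 (adjusted p = 2.37e-05). Both comparisons of the 500 nm high dose use the same 3 arrays, so their counts are not independent.

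**Figure D4:**
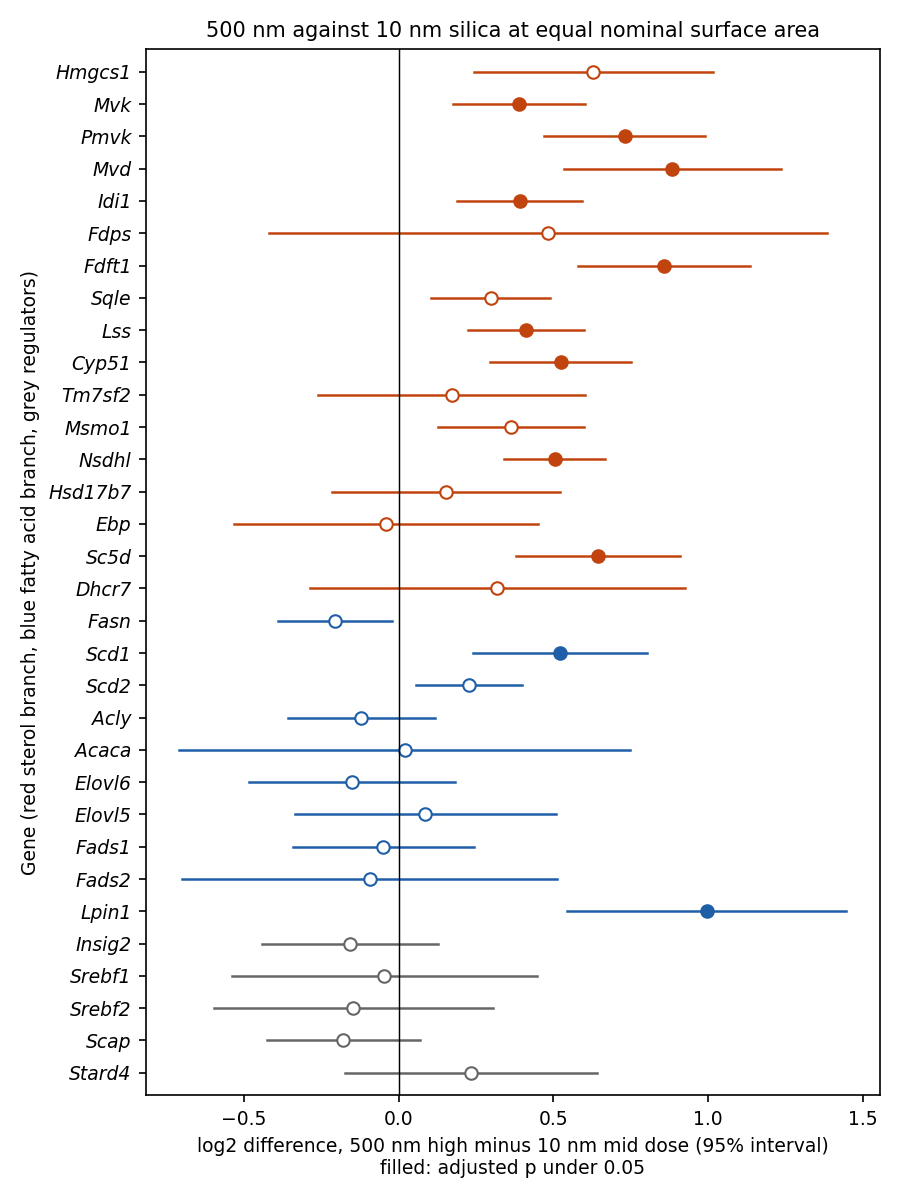
Difference in log2 value, 500 nm high dose minus 10 nm mid dose (equal nominal surface area), of the 32 measured genes, with 95% intervals from limma; filled points were called at adjusted p under 0.05. The 11 filled points all lie right of 0, and 9 of them are sterol genes in red.

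Other genes around the pathway were counted in the same fit, where 5.31% of all genes were higher and 10.0% lower at the 500 nm high dose. Of 11 further measured sterol and isoprenoid genes (17 looked for), 0 rose and 3 fell at the 500 nm high dose: Nus1, a subunit of the enzyme that makes dolichol precursors, by 0.54 (adjusted p = 0.00352), Lbr, a sterol reductase of the nuclear envelope, by 0.41 (adjusted p = 0.00171) and Npc1, which exports cholesterol from lysosomes, by 0.29 (adjusted p = 0.0463). At the 10 nm high dose 0 rose and 4 fell, against 7.58% and 12.6% of all genes. Of 8 measured genes of SREBP processing and degradation (12 looked for), 0 rose and 2 fell at the 500 nm high dose. Erlin1, a membrane protein of the endoplasmic reticulum that takes part in protein degradation there, fell by 0.83 (adjusted p = 6.71e-05), and Sec23a, a coat protein of the vesicles that carry SCAP, by 0.65 (adjusted p = 0.0316). Of 16 further fatty acid and glycerolipid genes (18 looked for), 0 rose and 4 fell there, led by Gpam, a glycerol phosphate acyltransferase, which fell by 0.70 (adjusted p = 0.0132). The median changes of the 3 lists were -0.14, -0.23 and 0.04, against 0.073 for all genes. In lists this small, 0 rises lies near the share over all genes.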

How the data were processed

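Total RNA of RAW 264.7 cells was labelled with biotin by an oligo-dT primed reaction, per the labels' protocols, which favours the 3 prime ends of transcripts. The deposited values are log10 signals per probe set. The authors made them with the RMA method, as the submitters' processing notes name it without a version. The base was read from the values and multiplied by 3.32 to give log2. RMA compresses changes of dim probe sets, and arrays carry no depth, so their number limits the precision. Of 22690 probe sets, the platform annotation gave 20393 a single symbol, 691 more than 1 and 1606 no symbol.

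All 21 arrays, grouped by their titles, entered 1 limma 3.58.1 fit in R 4.3.3 (lmFit, eBayes, two-sided, no covariate; 14 residual and 4.80 prior degrees of freedom), tested on simulated data. Values on every array are given for the 14 members that changed most among those called with arrays that do not overlap at either high dose or between the 500 nm high and 10 nm mid dose, and for Srebf1, Srebf2, Scap and Insig2. The members, branches and further lists (sterol and isoprenoid, SREBP processing, fatty acid and glycerolipid, LXR target and cell type marker genes) were chosen with earlier results of these data known. Replicate numbers come from the titles, with nothing said of a shared batch. In 3 of 9 comparisons (10 nm mid and high against untreated, 500 nm high against 10 nm high) arrays of one number deviated together in every pair; over all 27 pairs the correlation ran from -0.24 to 0.72. Alternatives were quantile normalization, median centring, a filter on dim genes, mean probe sets, a replicate block, another spread model, array weights, 6-array fits and leaving out arrays. Figures were drawn with matplotlib 3.10.9.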

Additional observations from a re-analysis of the deposited data

How the results depend on the processing

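No member called at either high dose against untreated cells changed its direction under the alternatives run. The count at the 500 nm high dose stayed within 1.5 times of 16 under every alternative run. Fitting only the 6 arrays compared left 2 members called at the 10 nm mid dose (5.31% of all genes), 2 at the 10 nm high dose (5.58%), 3 at the 500 nm mid dose (1% of all genes), 3 between the 500 nm high and 10 nm mid doses (0.783%) and 5 between the high doses (1.32%). Array weights gave 7, 13 and 14 at the 10 nm low, mid and high doses, 5 and 13 at the 500 nm low and mid doses, 17 between the 500 nm high and 10 nm mid doses and 22 between the high doses. The shares of all genes called with weights were 9.84%, 25.4%, 50.5%, 2.99%, 18.7%, 18.2% and 38.5% in that order, so the members' count at the 10 nm high dose lay below the share over all genes. The replicate block gave 11 at the 10 nm mid dose, 11 at the 10 nm high dose, 1 at the 500 nm low dose and 13 at the 500 nm mid dose (18%, 36.7%, 0.888% and 5.73% of all genes), and it moved no other count by over 1.5 times. In the comparisons where the numbers do not pair the arrays, between 3 and 4 of 6 arrays correlated best with their own number. The count was no higher for the 10 nm high dose against untreated cells (3 of 6) or between the high doses (4 of 6). It was 6 of 6 for the 10 nm mid dose against untreated cells. The mean of all probe sets gave 1 member each at the 10 nm and 500 nm low doses (0.831% and 0.476% of all genes). For the sterol minus fatty acid branch median it gave 0.00395, 0.25 and 0.26 at the 10 nm low, mid and high doses and 0.20 and 0.52 at the 500 nm low and high doses, against 0.083, 0.28, 0.23, 0.24 and 0.86 as reported. Quantile normalization gave 0.26 at the 500 nm low dose.

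Leaving out the replicate 3 arrays of all groups was chosen after seeing the data. It left 16 members called at the 500 nm high dose, where 629 of all genes were higher and 1021 lower. Among them 12 sterol genes were higher and 0 lower, and 1 fatty acid gene was higher and 2 lower. The sterol minus fatty acid branch median was then 0.038, 0.15 and 0.18 at the 10 nm doses from low to high. At the 500 nm mid and high doses it was 0.38 and 0.61. Leaving out single arrays gave 3 to 9 members at the 10 nm high dose, 5 to 10 at the 500 nm mid dose and 5 to 9 between the 500 nm high and 10 nm mid doses. Over all genes, 505 were higher and 1258 lower at the 10 nm high dose where 3 members were called. Where 9 were called there, the numbers were 1384 and 1650. At the 500 nm mid dose they were 122 and 176 with 5 members, and 145 and 106 with 10. Between the 500 nm high and 10 nm mid doses they were 66 and 125 with 5 members, and 92 and 121 with 9. With single arrays left out, the difference of branch medians ran from 0.021 to 0.13, 0.27 to 0.41 and 0.14 to 0.29 at the 10 nm low, mid and high doses. At the 500 nm low, mid and high doses it ran from 0.20 to 0.25, 0.48 to 0.58 and 0.66 to 0.96. The causes of these moves were not tested. Over the members' changes at both high doses, 41 values under alternatives crossed into the threshold and 25 out of it.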

Other observations

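At the high doses, 6 targets of the liver X receptors that make neither sterols nor fatty acids gave 1 rise and 3 falls with 500 nm silica and 1 rise and 1 fall with 10 nm silica, on a list chosen with earlier results known. Over all genes 5.31% were higher and 10.0% lower with 500 nm, and 7.58% and 12.6% with 10 nm silica. Abca1, the transporter that exports cholesterol from macrophages, changed by -2.12 ± 0.22 (SE, log2) with 500 nm (limma adjusted p = 1.37e-06) and by -1.29 ± 0.22 with 10 nm silica (adjusted p = 0.000343).

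Of the 16 further fatty acid and glycerolipid genes, 5 fell and 0 rose at the 10 nm high dose, against 12.6% and 7.58% of all genes. Gpam fell by 0.62 (limma adjusted p = 0.023), Mid1ip1, which promotes acetyl-CoA carboxylase activity, by 0.60 (adjusted p = 0.035) and Acss2, an acetyl-CoA synthetase, by 0.49 (adjusted p = 0.0117). Between the high doses, 3 genes of the list were higher with 500 nm than with 10 nm silica and 0 lower, against 4.15% and 3.37% of all genes, among them Mid1ip1 by 0.70 (adjusted p = 0.03) and Acss2 by 0.60 (adjusted p = 0.00735).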
